A study of Rattus norvegicus with 9 samples.

Results

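Yap overexpression was compared with a GFP control virus in primary neonatal rat cardiomyocytes, using 6 of the 9 small RNA libraries of the series. The cells came from hearts of Sprague Dawley rats aged 1 to 2 days, were enzymatically dispersed and cultured with 10% fetal bovine serum, and were kept in normal glucose. The control libraries (Ad-GFP, 3) received an adenovirus carrying green fluorescent protein, and the overexpression libraries (Ad-Yap WT, 3) an adenovirus carrying wild-type Yap; both were collected 48 h after the virus was added. All cells therefore carry adenovirus, neither the promoter that drives Yap nor the virus dose is given in the labels, and the genotype is labelled WT for Ad-GFP and Yap1 overexpression for Ad-Yap WT. The other 3 libraries (Ad-Yap shRNA, knock-down) were used to estimate the spread and for 1 direct contrast at the end. The members are every annotated entry of the deposited table, chosen by an identifier with the rat prefix: 653 of 1422 entries, the other 769 being predicted miRNAs. Of these 653, 7 had no read in any of the 6 libraries, 498 were counted in all 6, and 428 passed the filter on low counts and were tested. Yap mRNA is not measured by a miRNA library, so the overexpression itself was not checked. The labels do not say that the 3 libraries of a group came from separate isolations, so a p-value reflects how far these libraries scatter, and that scatter may be technical.

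A microRNA (miRNA) is a small RNA cut from a hairpin precursor. One hairpin gives a 5p and a 3p arm, and the arm loaded into an Argonaute protein represses mRNAs that pair with its seed, the bases 2 to 8 counted from its 5′ end. Yap is the transcriptional co-activator that the Hippo kinases hold out of the nucleus; with TEAD factors it drives growth and survival genes, and in the newborn heart it is known for promoting cardiomyocyte proliferation. miRNAs that share a seed are expected to share many targets, and miRNAs of neighbouring hairpins are often cut from a single transcript.

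The mature sequences below carry the results that follow, from the RefSeq records of the GRCr8 assembly, which held a sequence for 395 of the 428 tested members. They are written 5′ to 3′ with the seed in capitals. The first pair are the inflammation linked miR-146 miRNAs, which share a seed, and the next 4 share the seed of the p53 linked miR-34 family.
miR-146a-5p: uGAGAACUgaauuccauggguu
miR-146b-5p: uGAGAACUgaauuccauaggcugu
miR-34a-5p: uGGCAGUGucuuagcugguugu
miR-34b-5p: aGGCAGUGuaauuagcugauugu
miR-34c-5p: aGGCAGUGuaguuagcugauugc
miR-449a-5p: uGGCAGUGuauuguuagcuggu

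Further rises came as pairs with a common seed. miR-221-3p and miR-222-3p are such a pair, and so are miR-7a-5p and miR-7b, while miR-96-5p and miR-182 are encoded next to each other.
miR-221-3p: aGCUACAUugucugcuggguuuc
miR-222-3p: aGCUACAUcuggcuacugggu
miR-7a-5p: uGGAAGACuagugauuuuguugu
miR-7b: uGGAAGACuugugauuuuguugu
miR-96-5p: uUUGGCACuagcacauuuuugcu
miR-182: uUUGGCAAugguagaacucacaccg

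Several of the falls are shown next. miR-127-3p and miR-379-5p stand for the imprinted cluster on chromosome 6. miR-363-3p shares its seed with miR-92b-3p, which moved the opposite way.
miR-127-3p: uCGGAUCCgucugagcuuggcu
miR-379-5p: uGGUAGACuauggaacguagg
miR-363-3p: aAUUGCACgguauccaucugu
miR-92b-3p: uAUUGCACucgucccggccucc

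Libraries of the 2 groups differed in depth and in the share of reads that were miRNA. Summed miRNA counts were 3.496 to 3.599 M (M = 1e+06) in Ad-GFP and 2.95, 1.93 and 2.15 M in Ad-Yap WT replicates 1, 2 and 3. Annotated miRNAs made up 24.5 ± 0.56% of the library total that the deposited RPM values imply in Ad-GFP and 12.2 ± 4.5% in Ad-Yap WT (SD, n = 3 each); every Ad-Yap WT library was lower (exact permutation test, two-sided p = 0.1, the smallest possible for 3 against 3). Values below are CPM, reads per 1e+06 after TMM scaling among the miRNAs, so they say how a miRNA stands relative to the other miRNAs. The deposited RPM values, reads per 1e+06 of the whole library, are given beside them. The median CV between libraries of a group was 11.5% in Ad-GFP and 14.4% in Ad-Yap WT. Fewer cells of a type and less RNA per cell cannot be told apart in such bulk libraries.

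Scaled among miRNAs, 113 of the 428 tested members (26.4%) passed an adjusted p of 0.05 (edgeR quasi-likelihood test, Benjamini-Hochberg over all 579 tested entries): 61 were higher with Ad-Yap WT (14.3%) and 52 lower (12.1%). The share over all 579, predicted entries included, was 25%. At an unadjusted p under 0.05 there were 176 (41.1%). Rises were the larger, with 27 of at least 2-fold against 6 falls of that size, and the median log2 fold change over all 428 was -0.03. In 210 members (49.1%) the CPM of the 3 Ad-Yap WT libraries did not overlap those of the 3 Ad-GFP libraries, 97 above them (22.7%) and 113 below (26.4%). Without Ad-Yap WT replicate 3 the counts fell to 34 higher and 19 lower, and without Ad-GFP replicate 1 to 38 and 24.

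On the deposited RPM scale nearly everything was lower with Ad-Yap WT. There, 308 of the 428 members (72.0%) had all 3 Ad-Yap WT libraries below all 3 Ad-GFP libraries and 0 had them above, because the RPM scale carries the smaller miRNA share of those libraries. Fitting the counts with the deposited totals shifted the median log2 fold change by -1.29 and gave 2 higher and 261 lower calls. A rise below therefore means a miRNA that gained on the other miRNAs. Of the 61 risers, 14 also had a higher mean RPM, 13 of them with counts that were steady within the groups.

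**Figure D1:**
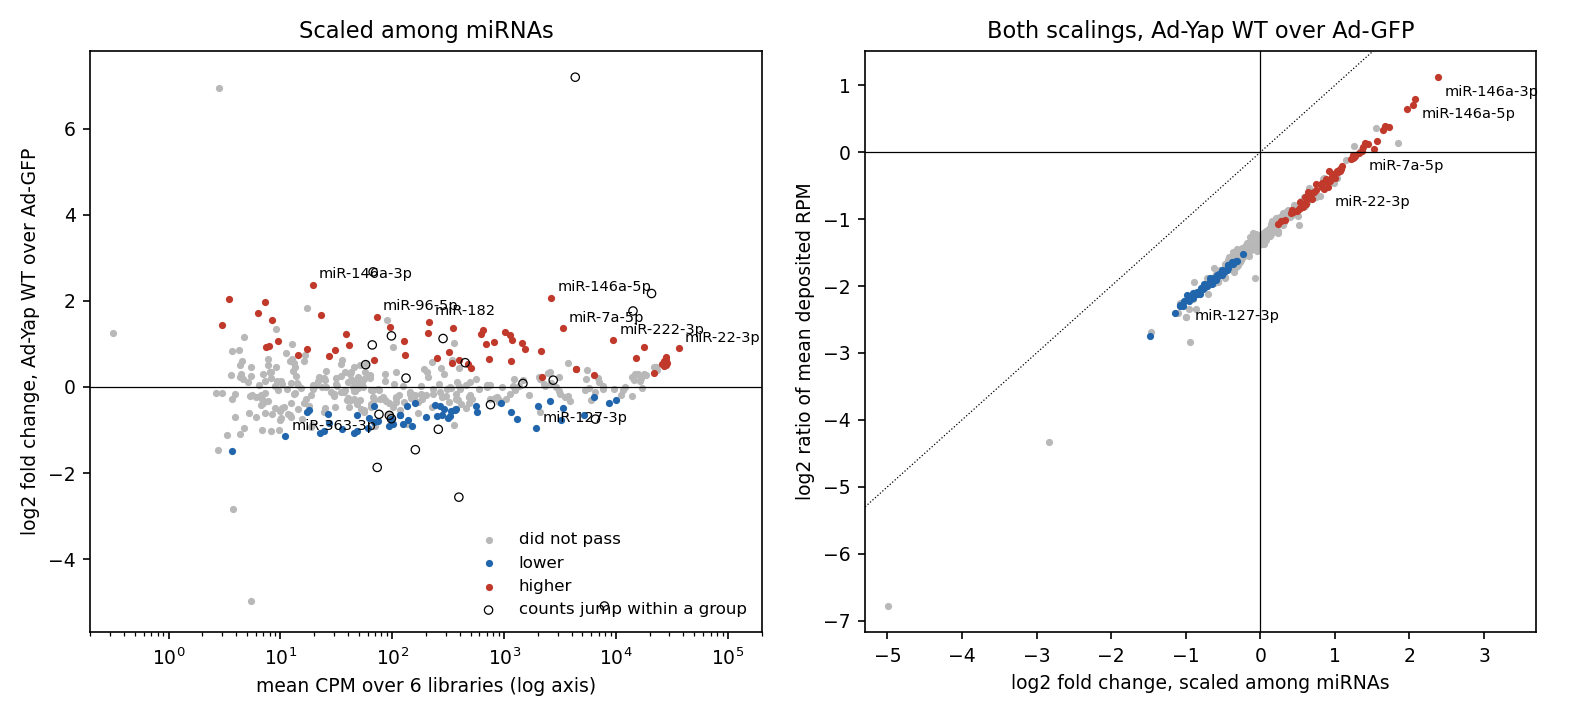
Left: log2 fold change (Ad-Yap WT over Ad-GFP, scaled among miRNAs) against mean CPM of the 6 libraries on a log axis for the tested annotated miRNAs; red points were higher and blue points lower at an adjusted p of 0.05, grey points did not pass, and open circles are entries whose counts jump between libraries of a group. Right: the log2 ratio of mean deposited RPM against the same fold change without the open circles; the dotted line marks equal values, and the points lie below it by a nearly constant distance, with miR-146a-5p and miR-146a-3p among the few above 0 on both axes.

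Among miRNAs of at least 10 CPM whose counts were steady within groups, the largest rises were in miR-146a, which NF-kB induces and which represses adaptor proteins of Toll-like receptor signalling. miR-146a-5p stood at 986, 1111 and 905 CPM in Ad-GFP and at 4241, 4016 and 4436 CPM in Ad-Yap WT. The groups were far apart, with a log2 fold change of 2.08 (SE 0.11, edgeR adjusted p = 6.64e-05), about 4 times the control level. It was also higher on average in deposited RPM, at 318, 345 and 277 against 840, 316 and 469, although replicate 2 of Ad-Yap WT fell within the control range there. The rarer arm miR-146a-3p rose from 6.23 ± 1.0 to 32.6 ± 6.2 CPM (SD, n = 3), by 2.38 (SE 0.21, adjusted p = 0.000411).

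miR-146b-5p, encoded on another chromosome but with the same seed, stood at 738, 695 and 601 CPM in Ad-GFP and at 1516, 1516 and 1682 CPM in Ad-Yap WT. All of its Ad-Yap WT libraries were higher (log2 fold change 1.21, SE 0.094, adjusted p = 0.000278), while its mean RPM did not differ in that way, at 213 ± 27.4 and 199 ± 92.4. miR-155-5p, induced in activated immune cells and by inflammatory signals in other cells, rose from 1543 ± 286 to 2736 ± 472 CPM (0.83, SE 0.17, adjusted p = 0.0123). In the list of NF-kB and inflammation linked miRNAs, 4 of 7 tested entries rose (57.1%, against 14.3% of all members) and 0 fell. The median was 0.83, and that count of 4 held in each of the 9 fits that left out 1 library. Those 4 include both arms of the miR-146a hairpin, so they are not 4 separate miRNAs. The members that did not pass were miR-223-3p (0.16), of myeloid cells, miR-9a-5p (0.20) and miR-9a-3p (-0.31).

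The miR-34 family, which p53 induces and which represses cell cycle genes, rose on both of its loci. miR-34a-5p was by far its most abundant member, at 8518, 14354 and 13604 CPM in Ad-GFP and 19198, 26065 and 24515 CPM in Ad-Yap WT. The groups did not overlap, and the log2 fold change was 0.94 (SE 0.21, adjusted p = 0.0163). This call was lost without Ad-Yap WT replicate 2 or 3. miR-34a-5p is also among the most abundant members, for which depth and treatment cannot be told apart, as set out below. Its 3p arm rose from 11.0 ± 3.0 to 35 ± 1.4 CPM (1.67, SE 0.21, adjusted p = 0.00162).

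On chromosome 8, where miR-34b and miR-34c are neighbours, all 4 arms rose. miR-34b-5p stood at 196, 187 and 201 CPM in Ad-GFP and at 501, 487 and 527 CPM in Ad-Yap WT, without overlap (1.37, SE 0.12, adjusted p = 0.000411). miR-34c-3p rose by 1.33, miR-34c-5p by 1.27 and miR-34b-3p by 1.04 on the log2 scale, and the call of miR-34c-5p was lost in 5 of 9 fits without 1 library. miR-449a-5p, from another locus but with the same seed, is known from ciliated epithelia. It stood at 794, 751 and 716 CPM in Ad-GFP and at 1637, 1621 and 1558 CPM in Ad-Yap WT, and its log2 fold change of 1.09 had the smallest SE of the family (0.066, adjusted p = 6.64e-05). Summed over the 5 entries with the seed GGCAGUG, the family went from 15061 ± 3802 to 30410 ± 3985 CPM, a log2 change of 1.01 (SE 0.19, adjusted p = 0.00939 over 321 tested seed families). Most of this sum was miR-34a-5p, for which depth and treatment cannot be told apart.

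In the wider p53 linked list, which adds miR-192, miR-194 and miR-215, 8 of 10 tested entries rose and 0 fell. That is 80%, against 14.3% of all members, and the median was 1.15. Leaving out 1 library gave 5 to 8 rises. The 5 came without Ad-Yap WT replicate 2 or 3. Every arm of miR-34a, miR-34b and miR-34c is among the 8, so beyond these the list adds only miR-215 and miR-192-3p. Both were rare. miR-215 rose by 1.56, from only 4.21 ± 1.3 to 12.6 ± 3.1 CPM, and miR-192-3p had a mean of 7.86 CPM over the 6 libraries. The entries that did not pass were miR-192-5p, at 411 ± 15.9 and 396 ± 34.2 CPM, and miR-194-5p (-0.36, SE 0.34).

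**Figure D2:**
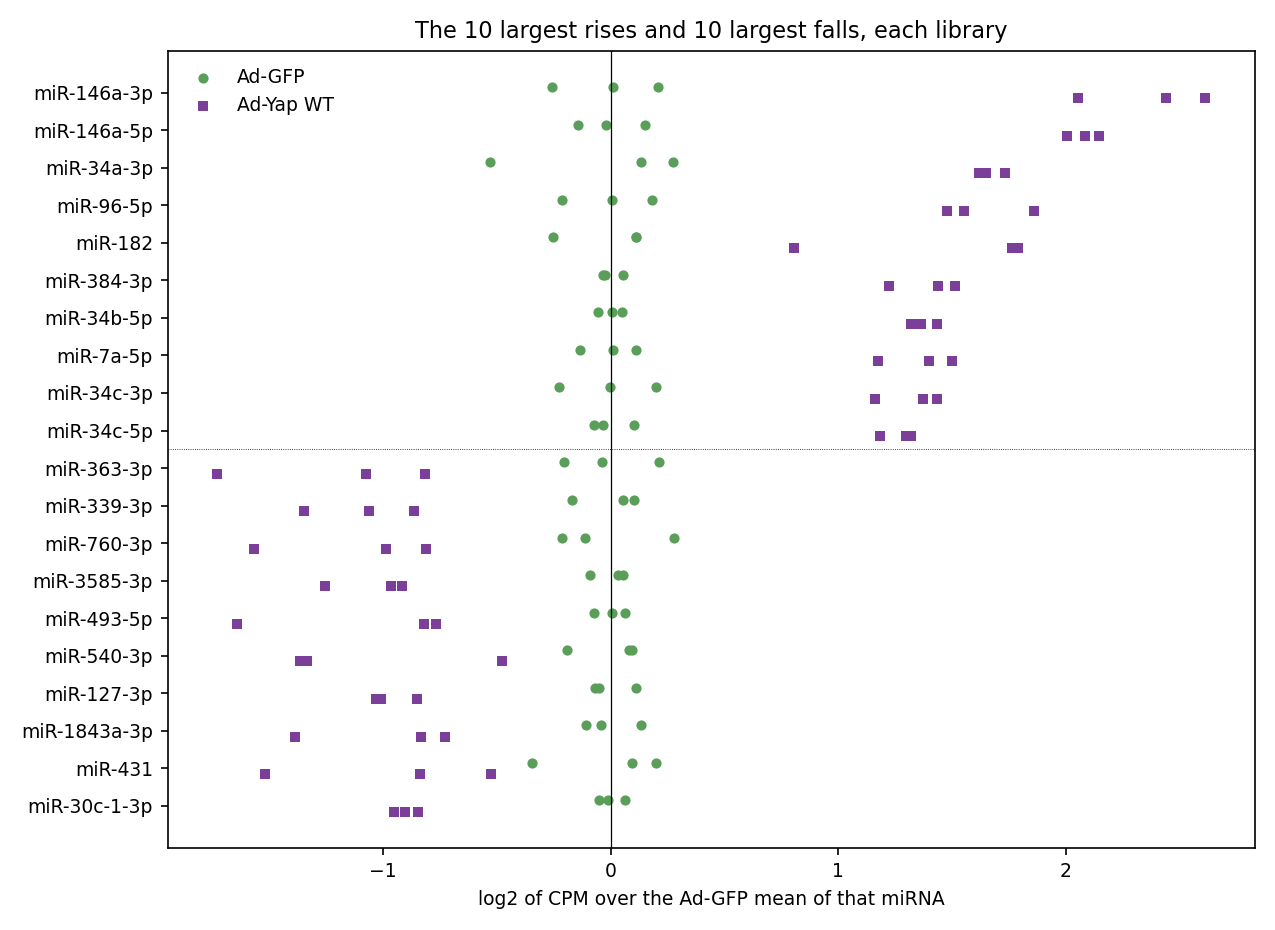
Each library of the 10 largest rises and the 10 largest falls with at least 10 CPM, as log2 of its CPM over the Ad-GFP mean of that miRNA; green circles are the 3 Ad-GFP and purple squares the 3 Ad-Yap WT libraries. The groups are apart in all 20, which the choice of these miRNAs required, and the rises reach farther from 0 than the falls.

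Rises also came in several small families and clusters. miR-221 and miR-222, neighbours on chromosome X that repress the cell cycle inhibitor p27, rose in their abundant arms. miR-222-3p stood at 6214, 6175 and 5784 CPM in Ad-GFP and at 11535, 13540 and 13549 CPM in Ad-Yap WT (log2 fold change 1.09, SE 0.088, adjusted p = 0.000278). miR-221-3p went from 954 ± 185 to 1946 ± 75.4 CPM (1.03, SE 0.14, adjusted p = 0.00243). Both held their call whichever library was left out, and miR-221-5p, at 11.3 and 14.4 CPM, did not pass.

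miR-7, an ancient miRNA abundant in neuroendocrine cells and neurons, rose in both of its tested forms. miR-7a-5p stood at 2009, 1698 and 1876 CPM in Ad-GFP and at 4201, 5264 and 4902 CPM in Ad-Yap WT (1.36, SE 0.11, adjusted p = 0.000278). In deposited RPM its group means were nearly equal, at 583 ± 60.8 and 588 ± 218. miR-7b was rare and went from 1.29 ± 0.64 to 5.62 ± 1.6 CPM (2.05, SE 0.36, adjusted p = 0.00665). Reads of such similar forms can be shared between entries.

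The neighbours miR-96, miR-182 and miR-183 on chromosome 4 form a cluster known from sensory organs. miR-96-5p stood at 39.9, 30.3 and 35.3 CPM in Ad-GFP and at 103, 97.9 and 128 CPM in Ad-Yap WT (1.64, SE 0.18, adjusted p = 0.000921). miR-182 stood at 118, 118 and 91.6 CPM and at 191, 377 and 370 CPM, so that replicate 1 of Ad-Yap WT lay nearer to the controls (1.52, SE 0.32, adjusted p = 0.0128); the call was lost without Ad-Yap WT replicate 3. Their neighbour miR-183-5p gave 43.0, 0 and 29.1 CPM and then 0.604, 39.2 and 0 CPM and did not pass; its reads are taken up again with its complementary entry below.

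Single miRNAs outside these families also rose in every library. Both arms of miR-384 rose, miR-384-3p from 52.5 ± 1.8 to 138 ± 14.1 CPM (1.40, SE 0.15, adjusted p = 0.000644). Its partner miR-384-5p rose from 82.2 ± 6.8 to 172 ± 31.1 CPM (1.06). miR-187-3p stood at 125, 125 and 121 CPM in Ad-GFP and at 274, 321 and 295 CPM in Ad-Yap WT (1.26, SE 0.12, adjusted p = 0.000453). miR-138-5p, known from neurons, rose from 454 ± 29.8 to 910 ± 176 CPM (1.00). miR-31a-5p, an abundant entry, rose from 11597 ± 594 to 18539 ± 2899 CPM (0.68, adjusted p = 0.00695). Its mean of 15068 CPM lay just below the most abundant class described below. Its raw counts did not rise in most libraries, at 53012, 48639 and 50418 in Ad-GFP and 53267, 37737 and 36861 in Ad-Yap WT. Whether depth plays a part in this change was not tested.

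The proliferation linked miR-17-92 cluster rose by smaller amounts. Of 10 tested arms from the 6 hairpins between miR-17 and miR-92a-1 on chromosome 15, 6 rose and 0 fell, with a median of 0.49. Over all members 14.3% rose. miR-18a-5p stood at 405, 382 and 378 CPM in Ad-GFP and at 590, 530 and 570 CPM in Ad-Yap WT (0.54, SE 0.079, adjusted p = 0.00402). miR-20a-5p rose by 0.60, miR-19b-3p by 0.44 and miR-92a-3p by 0.24, the last close to the threshold (adjusted p = 0.0465). miR-17-5p was at 0.43 and did not pass (SE 0.19, adjusted p = 0.124). The entries miR-17-5p, miR-19b-3p and miR-92a-3p also belong to hairpins of the paralog cluster on chromosome X. Their reads therefore cannot be assigned to a single locus.

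With the paralog clusters, 7 of 18 rose and 1 fell, so 44.4% were called in either direction, against 26.4% of all members. Leaving out 1 library gave 3 to 7 rises, the 3 without Ad-Yap WT replicate 3. With library size as the only scaling, 1 rose and 1 fell. The faller was miR-363-3p of the chromosome X paralog, the largest fall among the miRNAs of at least 10 CPM: 14.9, 17.7 and 13.3 CPM in Ad-GFP and 7.24, 4.61 and 8.69 CPM in Ad-Yap WT (-1.14, SE 0.31, adjusted p = 0.0317). That call was lost in 7 of 9 fits without 1 library. miR-92b-3p, with the same seed, rose from 22.9 ± 4.7 to 54.1 ± 1.4 CPM (1.24, SE 0.21, adjusted p = 0.00599). The sum over the 5 entries with this seed, most of it miR-92a-3p, rose by 0.32 (SE 0.069, adjusted p = 0.0146).

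Falls were smaller, and 14 of the 52 came from the imprinted Dlk1-Dio3 region, a maternally expressed cluster of miRNAs that is active in fetal and newborn tissue. Of its 57 tested entries 14 fell (24.6%, against 12.1% of all members) and 1 rose, with a median log2 fold change of -0.54 against -0.03 over all members. The share called in either direction was 26.3%, beside 26.4% over all members, and 38 falls lay outside the region. Leaving out 1 library gave 6 to 14 falls, the 6 without Ad-Yap WT replicate 3; the 7 and 9 without Ad-GFP replicates 1 and 3 were next. miR-127-3p, which lies antisense to Rtl1, was the most abundant faller of the cluster, at 2761, 2435 and 2460 CPM in Ad-GFP and 1416, 1249 and 1267 CPM in Ad-Yap WT. All Ad-Yap WT libraries were lower, by 0.96 on the log2 scale (SE 0.10, adjusted p = 0.000648), and this call held whichever library was left out.

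Within the region, 6 of 12 tested arms of the 9 hairpins from miR-770 to miR-136 fell, with a median of -0.78. Of the 31 hairpins from miR-379 to miR-410, 6 of 36 tested arms fell and 1 rose, with a median of -0.54. Over all members 12.1% fell. The falls were denser in the first stretch, a difference that was not tested. From the first stretch, miR-493-5p fell by 1.02, miR-431 fell by 0.90, miR-433-3p fell by 0.87 and miR-434-5p fell by 0.83. From the second, miR-410-3p fell by 0.85, miR-376a-3p fell by 0.68 and miR-379-5p, at 1434, 1263 and 1388 and then 961, 839 and 950 CPM, fell by 0.57. Of 9 fits without 1 library, miR-493-5p lost its call in 4, miR-431 in 7, and the cluster's miR-540-3p in 6.

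Outside the cluster, the imprinted miR-675-3p, cut from the H19 RNA, fell from 173 ± 14.1 to 102 ± 9.1 CPM (-0.76, SE 0.13, adjusted p = 0.00599). miR-328a-3p was the most abundant miRNA to fall by more than 0.7: 3963, 4110 and 4101 CPM in Ad-GFP and 2544, 2198 and 2397 CPM in Ad-Yap WT (-0.77, SE 0.079, adjusted p = 0.000644). miR-339-3p fell from 61.5 ± 6.0 to 29.2 ± 4.8 CPM (-1.07, SE 0.19, adjusted p = 0.00665). miR-760-3p (-1.07) and miR-3585-3p (-1.03), each near 30 CPM in the controls, were of the same size. Of the miR-30 family 3 of 11 fell (27.3%, against 12.1% of all members) and 0 rose. All of these falls were 3p arms, led by miR-30c-1-3p at 116, 126 and 120 CPM and then 67.0, 64.5 and 62.3 CPM (-0.90, SE 0.15, adjusted p = 0.00599). In the miR-181 family 3 of 7 fell, among them miR-181c-3p (-0.80), and 0 rose. That is 42.9%, against 12.1% of all members, but there were 0 falls without Ad-Yap WT replicate 3 and 1 without Ad-GFP replicate 1.

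**Figure D3:**
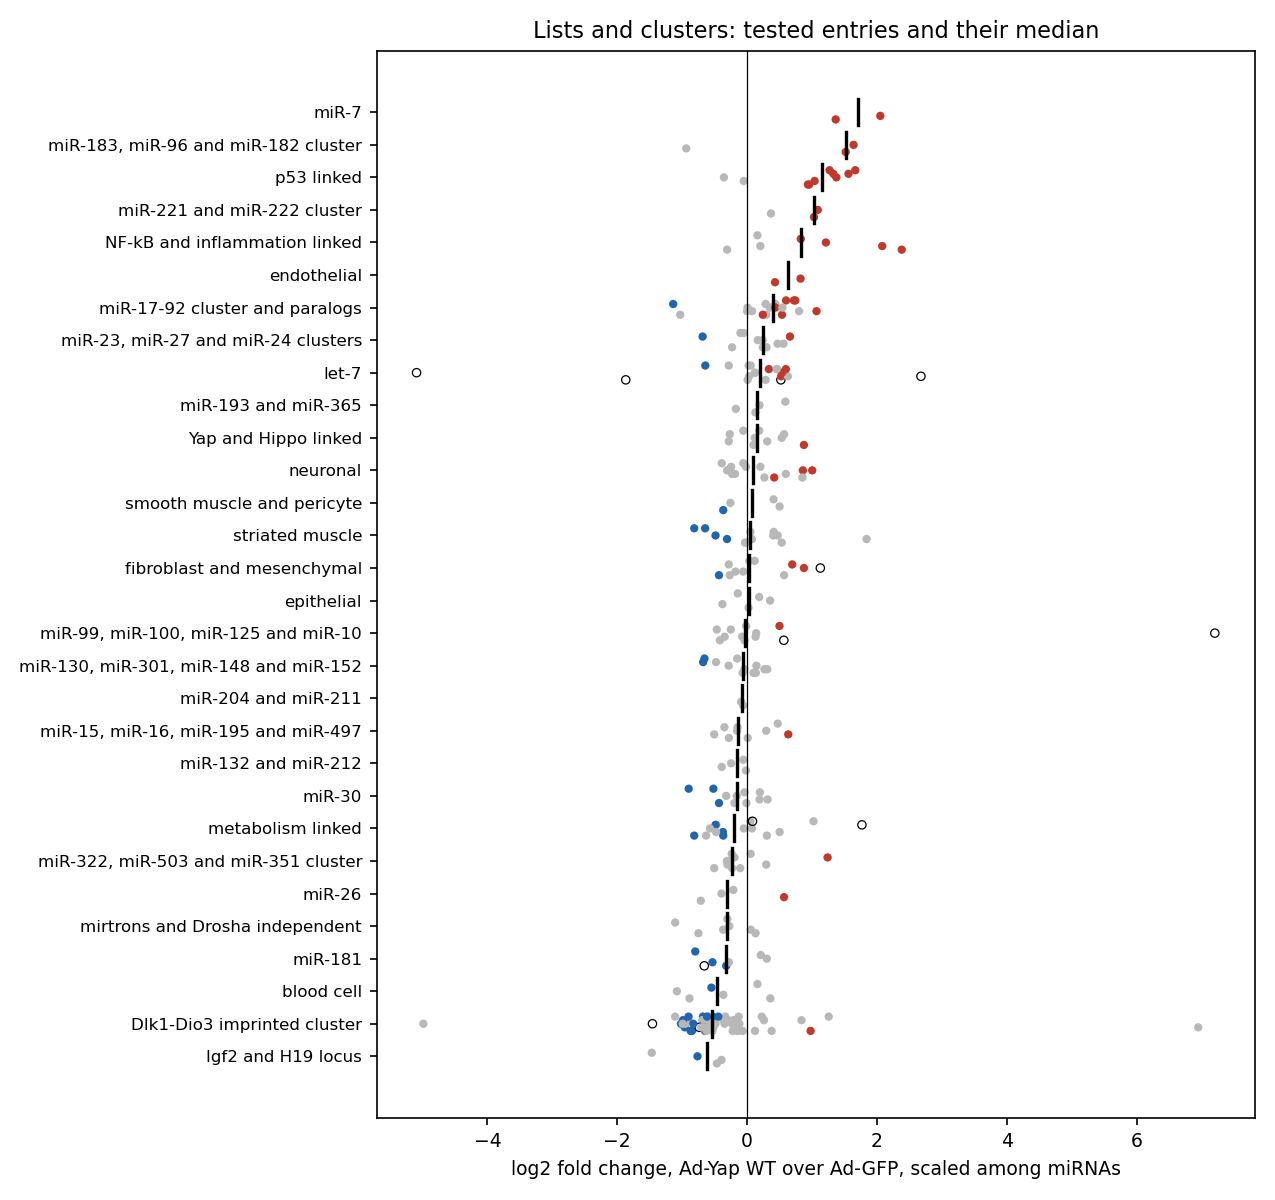
Log2 fold change (Ad-Yap WT over Ad-GFP, scaled among miRNAs) of every tested entry in each list or cluster, with rows ordered by the list's median, drawn as a black bar; red points were higher and blue points lower at an adjusted p of 0.05, grey points did not pass, and open circles are entries whose counts jump within a group. The p53 linked list lies almost wholly above 0 and the Dlk1-Dio3 cluster mostly below, and of the cell type lists the endothelial pair alone lies clearly above 0.

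Of the heart muscle miRNAs, the most abundant did not pass and several others fell. The striated muscle list summed to 56990 to 61110 CPM in Ad-GFP and 53640 to 63140 CPM in Ad-Yap WT, and it held miR-499-5p and miR-1-3p among the most abundant entries, as the labelled cell type would have them. Of 13 tested entries 0 rose and 4 fell (30.8%, against 12.1% of all members), with a median of 0.05. The 4 include miR-133a-3p and miR-133c, which are reverse complements over 21 bases. How reads of such entries were assigned between strands is not stated, so these cannot be counted as separate falls. Summed with miR-133b-3p they gave a single fall (-0.42, SE 0.095). miR-1-3p, the main miRNA of striated muscle, stood at 17109 ± 1166 and 16728 ± 1041 CPM and did not pass (-0.03, SE 0.12). miR-499-5p, from an intron of a myosin heavy chain gene, was at 0.40 (SE 0.13, adjusted p = 0.0588).

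The 4 fallers were miR-133a-3p, miR-133c, miR-208a-5p and miR-208b-5p. miR-133a-3p, known for restraining cardiomyocyte proliferation and hypertrophy, stood at 11008, 10626 and 11318 CPM in Ad-GFP and at 8702, 9473 and 8410 CPM in Ad-Yap WT, without overlap (-0.31, SE 0.083, adjusted p = 0.031). miR-208a-5p, from an intron of the alpha myosin heavy chain gene and the more abundant arm here, fell from 3921 ± 85.0 to 2798 ± 80.6 CPM (-0.49, SE 0.12, adjusted p = 0.0236), while miR-208a-3p stood near 31 CPM in both groups (0.07, SE 0.39). Leaving out 1 library gave 1 to 4 falls. In a pair of these fits, one lacking replicate 1 of the overexpression and the other replicate 2 of the knock-down, 1 entry rose. There was 1 fall without Ad-GFP replicate 1, 2 or 3 or Ad-Yap WT replicate 3.

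Some markers of other cells in such cultures passed the threshold. The fibroblast and mesenchymal list had 2 rises, 1 fall and 8 entries that did not pass, with a median of 0.03. Its share called in either direction was 27.3%, beside 26.4% over all members. Its summed level was 38350 to 43670 CPM in Ad-GFP and 46910 to 60430 CPM in Ad-Yap WT. The largest part of that sum was miR-21-5p, at a mean of 27900 CPM over the 6 libraries. It is among the most abundant members, for which depth and treatment cannot be told apart, as set out below. The rises were miR-21-5p (0.69) and miR-29b-3p (0.87) and the fall was miR-199a-3p (-0.43). miR-21-5p and miR-199a-3p each lost their call in 5 of 9 fits without 1 library, and the list then had 0 to 2 rises and 0 to 1 falls; both counts were 0 without Ad-GFP replicate 2 and without Ad-Yap WT replicate 3. Both arms of the endothelial miR-126a rose, the 3p arm from 3739 ± 519 to 5037 ± 346 CPM (0.43, adjusted p = 0.0401), and the list's summed level went from 3581 to 4480 up to 5002 to 5853 CPM. Neither endothelial call was left in 6 of the 9 fits without 1 library.

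In the blood cell list 1 of 6 fell, miR-150-5p of lymphocytes (-0.55), whose call was lost in 8 of 9 fits without 1 library, and the list's sum was 936 to 999 CPM in Ad-GFP and 487 to 845 CPM in Ad-Yap WT. Of 4 smooth muscle and pericyte entries, miR-143-3p fell by 0.37, a call lost without Ad-Yap WT replicate 3, and miR-145-5p was at 0.41 (SE 0.22, adjusted p = 0.215). Epithelial miRNAs were nearly absent, at 43.8 to 61.3 CPM summed over 13 entries, and 0 of 5 tested passed; miR-449a-5p was not part of that list. Of 14 neuronal entries 3 rose, miR-138-5p, miR-218a-5p and miR-129-5p, while the neuron-defining miR-124-3p was at most 2.03 CPM. Shares called in either direction were 16.7% in the blood cell list, 25% in the smooth muscle and pericyte list and 21.4% in the neuronal list. None of these exceeded the 26.4% over all members. The call of miR-129-5p was lost in 7 of 9 fits without 1 library. The part of these cell types in the results was not tested. A list of Yap and Hippo linked miRNAs gave 1 rise in 10, miR-29b-3p, a share of 10.0% against 26.4% of all tested members called in either direction.

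The most abundant entries shared a modest rise. Among the 21 most abundant members, at 15840 CPM or more, 10 rose (47.6%, against 14.3% of all members) and 0 fell. The median log2 fold change was 0.47, against -0.20 to 0.02 in the 4 lower classes of abundance. miR-22-3p, which the series title places downstream of Yap, led all libraries with raw counts of 110004, 110172 and 110698 in Ad-GFP and 108612, 102125 and 104980 in Ad-Yap WT. These raw counts were nearly level while the summed miRNA counts were lower in every Ad-Yap WT library, and its CPM rose from 25236 ± 839 to 47437 ± 13323 (0.91, SE 0.23, adjusted p = 0.0245). The call was lost in 5 of 9 fits without 1 library, and its 5p arm did not pass (-0.19, SE 0.15).

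The trend with abundance was also present between libraries of the same treatment. The highest count of a library exceeded the count ranked 10 by only 1.23 to 1.29 times in Ad-GFP, by 1.40 times in Ad-Yap WT replicate 1, and by 2.00 and 1.77 times in the shallower replicates 2 and 3. Within Ad-Yap WT the most abundant class stood 0.43 (replicate 2) and 0.37 (replicate 3) log2 units above replicate 1 in CPM, while the 4 other classes had medians between -0.11 and 0.03. Within Ad-GFP, whose libraries were equally deep, the same class differed by -0.01 to 0.06. Depth and treatment cannot be told apart for these entries. With cyclic loess, a scaling that fits and removes such a trend, this class had a median of 0.16.

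The balance of the 2 arms of a precursor does not depend on how libraries are scaled. Among 118 precursors with both arms tested, 2 (1.69%) had a 5p to 3p ratio that differed between the groups (limma, adjusted p under 0.05). They moved in opposite directions, and their arms are as follows.
miR-503-5p: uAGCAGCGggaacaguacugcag
miR-503-3p: gGAGUAUUguuuccgcugccugg
miR-154-5p: uAGGUUAUccguguugccuucg
miR-154-3p: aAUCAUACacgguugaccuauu

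In miR-503, whose 5p arm belongs with the cell cycle repressing miR-16 group, the log2 ratio of 5p to 3p was 0.93, 0.63 and 0.98 in Ad-GFP and 2.32, 2.42 and 2.43 in Ad-Yap WT. The libraries fell into 2 tight groups, 1.54 apart (SE 0.20, limma adjusted p = 0.00345). Its 5p arm rose from 366 ± 81.7 to 865 ± 73.3 CPM (1.24, SE 0.18, edgeR adjusted p = 0.00328), and the 3p arm, at 201 ± 21.3 and 165 ± 8.5 CPM, did not pass (-0.29, SE 0.13). miR-503-5p was alone in this among the 11 tested arms of its 6 neighbouring hairpins on chromosome X: 1 rose and 0 fell, with a median of -0.23, and the abundant neighbour miR-322-5p was at 0.29 (SE 0.10, adjusted p = 0.0689).

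In miR-154, from the Dlk1-Dio3 cluster, the log2 ratio went the other way, from 2.21, 2.76 and 2.20 in Ad-GFP to 0.76, 0.60 and 0.89 in Ad-Yap WT (difference -1.64, SE 0.22, limma adjusted p = 0.00345). The 5p arm fell from 144 ± 5.7 to 92.0 ± 5.6 CPM (-0.65, SE 0.13, adjusted p = 0.0123). The 3p arm rose from 27.7 ± 5.0 to 54.6 ± 2.2 CPM (0.98, SE 0.16, adjusted p = 0.00555). It is the 1 riser of the 57 tested entries of that cluster. The next precursors by p were miR-93 (adjusted p = 0.0589) and miR-192 (adjusted p = 0.0696), both toward the 3p arm.

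**Figure D4:**
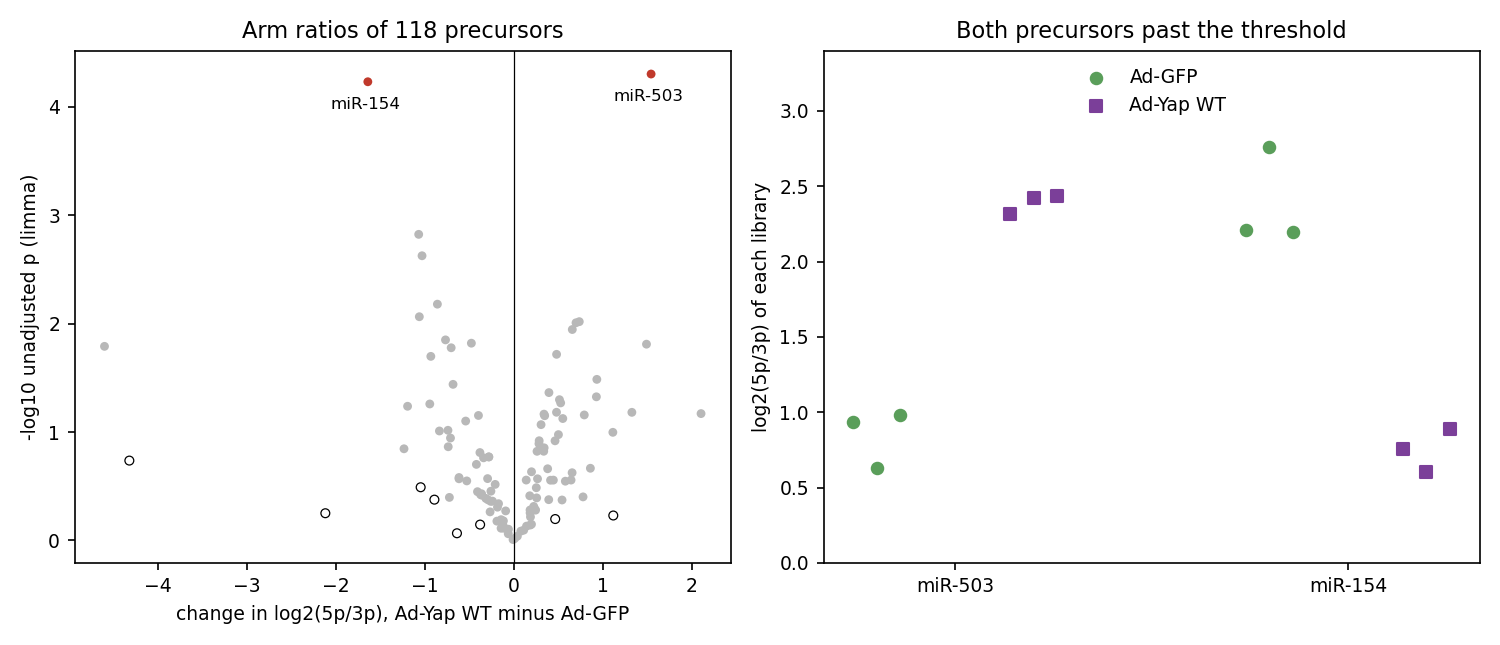
Left: change in log2(5p/3p) from Ad-GFP to Ad-Yap WT for 118 precursors against -log10 of the unadjusted limma p; red points pass after adjustment, and open circles are precursors with an arm whose counts jump within a group. Right: the ratio in each library for miR-503 and miR-154, green circles Ad-GFP and purple squares Ad-Yap WT; the groups are apart in both, in opposite directions.

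Some entries could not be read singly. In 22 of the tested members the scaled counts differed by more than 8-fold between libraries of a group with a count above 300, and 15 of these 22 have another entry that is their reverse complement over at least 16 bases. The pairs below, each annotated on opposite strands of a locus in GRCr8, are shown because their reads changed entry from library to library; capitals mark the complementary run.
let-7a-5p: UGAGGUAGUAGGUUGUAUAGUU
miR-3596a: AACUAUACAACCUACUACCUCA
miR-183-5p: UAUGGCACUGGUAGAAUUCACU
miR-3553: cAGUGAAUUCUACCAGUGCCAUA
miR-434-3p: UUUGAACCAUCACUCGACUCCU
miR-3543: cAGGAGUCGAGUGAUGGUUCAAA

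let-7a-5p, of the widely expressed let-7 family, had raw counts of 97442, 2646 and 98745 in Ad-GFP and 1971, 936 and 439 in Ad-Yap WT. miR-3596a had 584, 97017 and 3046 and then 91128, 65499 and 76256. A library high in one was low in the other. Their sum was steady in Ad-GFP, at 98026, 99663 and 101791, and was 93099, 66435 and 76695 in Ad-Yap WT, whose libraries differ in depth. Libraries high in miR-125b-5p were likewise low in miR-3588. miR-125b-5p alone passed the test at 7.20 (adjusted p = 0.0495), and the sum of both entries did not (0.70, SE 0.33, adjusted p = 0.14). The labels do not say how reads were assigned between strands, so the entries of these pairs cannot be read singly.

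Entries complementary over at least 20 bases were therefore summed, 61 entries into 30 sums, an alternative chosen after the data were seen. Of the 28 sums tested, 6 rose and 6 fell, and over all members 66 rose and 59 fell. miR-183-5p with miR-3553 gave 78.2, 78.3 and 54.3 CPM in Ad-GFP and 161, 105 and 177 CPM in Ad-Yap WT. That sum rose by 1.07 (SE 0.23, edgeR adjusted p = 0.00988), beside its neighbours miR-96-5p and miR-182. let-7a-5p with miR-3596a rose by 0.59 (SE 0.12, adjusted p = 0.0098), close to let-7f-5p alone at 0.60. Both stood above 15840 CPM, in the range of abundance where depth and treatment cannot be told apart.

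In the Dlk1-Dio3 region miR-434-3p with miR-3543 gave 480, 557 and 365.5 CPM and then 219, 272 and 250.1 CPM. This sum fell by 0.92 (SE 0.21, adjusted p = 0.0139), and miR-369-5p with miR-3578 fell by 0.66 (SE 0.11, adjusted p = 0.00389). With the sums, 18 entries listed for the cluster fell, and over all members 59 of 405 tested entries fell. The sum of miR-434-3p with miR-3543 is not among the 18, because it was counted under miR-3543, which the list lacks. Among abundant entries miR-3557-5p, complementary to the muscle and metabolic miR-378a-3p over 21 bases, rose by 0.62 alone and by 0.96 (SE 0.24, adjusted p = 0.0177) as a sum. For an entry this abundant, depth and treatment cannot be told apart. Here the reads did not change entry: raw counts of miR-3557-5p were 96998, 95197 and 95810 in Ad-GFP, and those of miR-378a-3p were 9673, 76289 and 33, so the size of the summed change rests on control libraries that differ. The sum of the other arms, miR-378a-5p and miR-3557-3p, fell by 0.37 (SE 0.12, adjusted p = 0.0444). miR-133a-3p with miR-133b-3p and the complementary miR-133c fell by 0.42 (SE 0.095, adjusted p = 0.013).

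**Figure D5:**
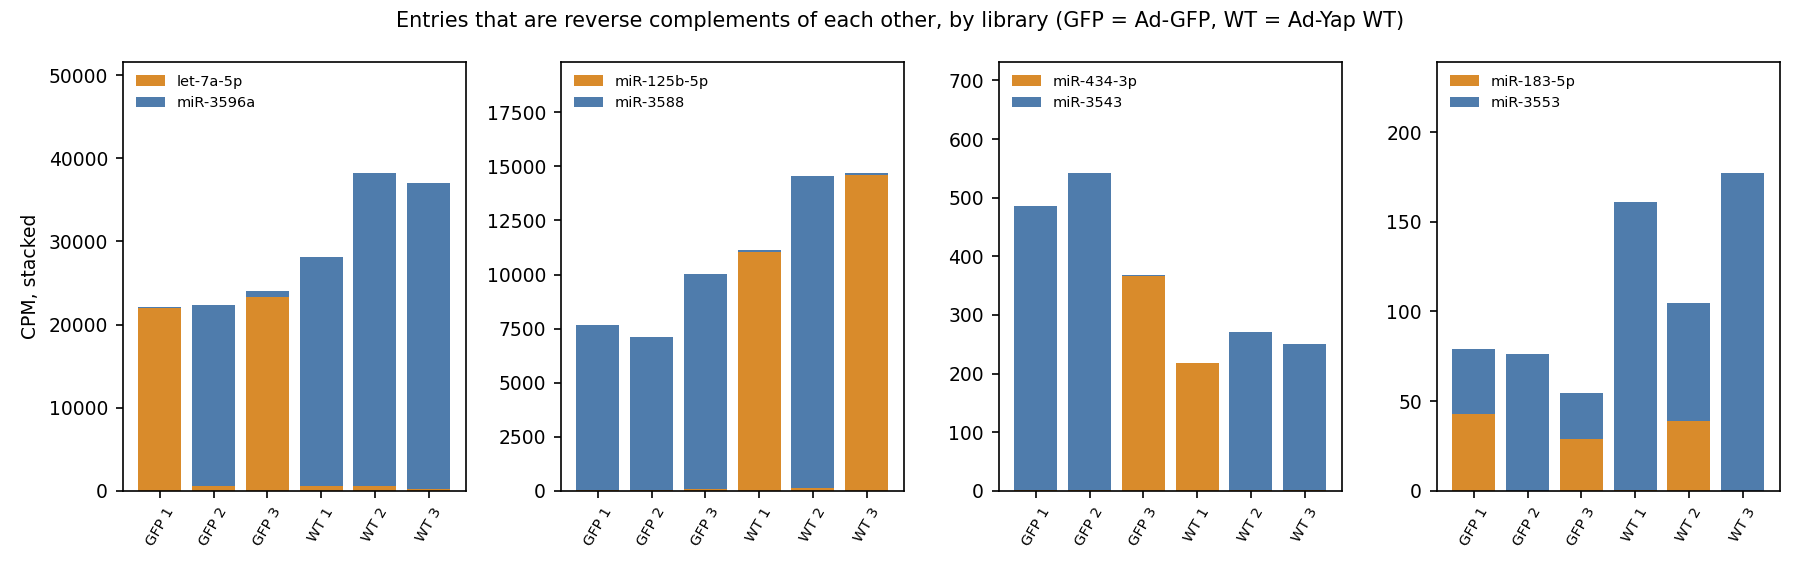
CPM of 4 pairs of entries whose mature sequences are reverse complements, stacked by library (3 Ad-GFP, then 3 Ad-Yap WT). Within a pair the reads sit almost wholly in a single entry in most libraries and change entry between libraries of a group, while the height of the stack varies less; miR-183-5p and miR-3553 are mixed in 3 of 6 libraries.

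Seed families, with counts summed over entries with the same bases 2 to 8, gave 82 of 321 past the threshold (25.5%), 48 higher and 34 lower. Those that rose with the smallest p were miR-146a/b (1.84, SE 0.12, from 1841 ± 239 to 6586 ± 435 CPM), miR-7a/b (1.42), the 3p arms of miR-34b and miR-34c (1.22) and miR-221/222 (1.13). Those that fell with the smallest p each held a single entry: miR-127-3p (-0.91), miR-379-5p (-0.52), miR-675-3p (-0.72) and miR-3068-5p (-0.70). Families were scaled among families, so their CPM differ slightly from sums of the values above. The median GC content of the mature sequence was 45.5% in the 58 members that rose and had a sequence (quartiles 38.36% and 51.78%). It was 50% in 46 that fell (44.36% and 56.49%) and 47.6% in 291 that did not pass (40.91% and 54.55%). These ranges overlapped widely, and the median length was 22 bases in each. Whether base composition plays a part was not tested.

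At the edge of detection, 3 entries had reads in all 3 Ad-Yap WT libraries and none in Ad-GFP, namely miR-96-3p, miR-138-1-3p and miR-217-3p, with 1 to 3 reads per library. The other arms of the first pair, miR-96-5p and miR-138-5p, were among the rises above. The reverse pattern occurred in 0 entries, although the Ad-GFP libraries were deeper.

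Set directly against the Ad-Yap shRNA libraries, 122 of the 428 members differed (28.5%), 58 higher and 64 lower with Ad-Yap WT. The leading rises fell into different cases. For miR-146a-5p, the difference between overexpression and knock-down was 0.13 (SE 0.11, edgeR adjusted p = 0.401), for miR-146b-5p -0.04 (SE 0.092), for miR-34a-5p 0.02 (SE 0.21) and for miR-182 -0.06 (SE 0.31), so no difference passed for these. miR-7a-5p was lower with Ad-Yap WT than with Ad-Yap shRNA, by -0.75 (SE 0.11, adjusted p = 0.00254).

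Other rises stood above the knock-down libraries as well. miR-34b-5p was higher by 1.49 (SE 0.13, adjusted p = 0.000256), miR-449a-5p by 1.11 (SE 0.066, adjusted p = 2.94e-05) and miR-384-3p by 1.54 (SE 0.15, adjusted p = 0.000344). miR-222-3p was higher by 1.03 (SE 0.088, adjusted p = 0.000256) and miR-503-5p by 1.04 (SE 0.18, adjusted p = 0.00398). Of the fallers, miR-127-3p differed by -0.20 (SE 0.10, adjusted p = 0.181) and miR-328a-3p by 0.10 (SE 0.079, adjusted p = 0.365). miR-133a-3p was lower with Ad-Yap WT than with Ad-Yap shRNA, by -0.87 (SE 0.084, adjusted p = 0.000344). No library with a non-targeting shRNA was analysed here, and an effect of lower Yap and one of carrying an shRNA cannot be told apart.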

How the data were processed

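Per the labels' protocols, small RNA libraries were made from total RNA with the MGIEasy kit, PCR amplified, size selected on a gel and read as 50 base single reads; the protocol text also mentions mRNA enrichment. Per the submitters' processing notes, Bowtie2, DESeq2 and the rn6 build were used, without versions or roles. No source used here states the treatment of multiply matching reads, of strand or of molecular identifiers. The authors deposited whole-number read counts per miRNA and RPM values, which equal those counts over 1 total per library; what that total counts is not stated.

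Counts were tested with edgeR 4.0.16 (R 4.3.3): filterByExpr kept 579 entries (428 annotated, 151 predicted), TMM scaling among miRNAs, glmQLFit and glmQLFTest over all 9 libraries, common biological CV 45.1%, two-sided p-values with Benjamini-Hochberg adjustment. SE is the log2 fold change over the square root of F. Arm ratios, log2((5p + 0.5)/(3p + 0.5)), used limma 3.58.1. Neighbouring hairpins lie within 10 kb on GRCr8. Scripts were tested on simulated data. Reads were amplified by PCR, so counting error understates the uncertainty of low counts. Counts of libraries of a group differed by more than counting noise (chi-square per degree of freedom 43.5 to 100), so none was merged as the same library deposited again; this does not show that they are separate isolations.

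Named miRNAs are the 10 largest rises and 10 largest falls without overlap at 10 CPM or more, the 8 most abundant called, up to 3 per list, both arms of these, miR-22, and leading seed families and arm pairs (2 of 6 sought passed). Others, such as miR-155-5p, miR-215, miR-449a-5p, miR-187-3p, miR-31a-5p and miR-328a-3p, were chosen after their values were seen. The members and all lists were chosen with earlier results of these data known. Alternatives were other scalings, filters and tools, each library left out, and, added after seeing the data, named miRNAs with the common shift removed and complementary entries summed.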

Additional observations from a re-analysis of the deposited data

Results flagged for a closer look

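Predicted entries, which the comparison of annotated miRNAs does not use, also changed: of 151 tested, 28 were higher and 4 lower with Ad-Yap WT by edgeR at an adjusted p of 0.05, and 21 of the rises were at least 2-fold. Called in either direction, predicted entries had a smaller share than the 25% over all 579 tested entries or the 26.4% of annotated members. Predicted entries are not described singly here.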

How the results depend on the processing

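Annotated calls of Ad-Yap WT against Ad-GFP (61 higher, 52 lower) depended most on scaling. Library size alone, which shifted the median by -0.30, gave 33 higher and 94 lower; the deposited totals (shift -1.29) gave 2 and 261, and 29 of 69 named miRNAs changed sign; deposited RPM gave 1 and 314 with a pseudocount of 1, and 0 and 294 with 0.1. Upper quartile factors gave 49 and 63 and cyclic loess 48 and 62. Without the filter on low counts there were 32 and 34, and DESeq2 gave 68 and 70. Leaving out 1 library gave 34 to 63 higher and 19 to 48 lower, 2 to 4 arm pairs (2 in full) and 45 to 82 seed families (82 in full). The deposited totals gave 207 seed families, and 27 rather than 42 named miRNAs that differed between Ad-Yap WT and Ad-Yap shRNA. With the replicate number as a block, 58 rose and 43 fell; same-numbered libraries had deviation correlations of 0.0193, -0.0783 and 0.128, so the numbers were not taken as a pairing. With the common shift removed, 0 of the 69 named called miRNAs reversed, but most lost their call: the deposited totals left 2 (miR-146a-5p and miR-146a-3p), RPM left 5 with a pseudocount of 1 and 3 with 0.1, and library size alone left 52. The causes were not tested. Depth limits entries of a few reads.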
